A study of Mus musculus with 11 samples.

Results

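Messenger RNA of 10 metallothionein and antioxidant genes (Mt1, Mt2, Gpx1, Gpx3, Gpx4, Sod2, Sod3, Hmox1, Nqo1 and Txnrd1) was followed through the mesenchymal cells of the mouse liver. The genes were taken by symbol, and 10 of 10 were found among the 27998 genes of the 10X table. They had been selected on the 10X levels of these data, with the higher Gpx3 in stellate cells after 6 weeks of CCl4 in view, so that contrast is described here and not tested. Gpx3 and Sod3 encode secreted enzymes, and the products of the other genes work inside cells.

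Metallothioneins are small cysteine-rich proteins that bind zinc and copper, and their genes are induced by metals through the factor MTF1 and by glucocorticoids. Superoxide dismutases turn superoxide into hydrogen peroxide. Glutathione peroxidases, of which those encoded by Gpx1, Gpx3 and Gpx4 are selenoproteins, reduce hydrogen peroxide and lipid peroxides. Hmox1, Nqo1 and Txnrd1 are textbook targets of NRF2, a factor released in oxidative stress, and hepatic stellate cells (HSCs), fibroblasts (FBs) and vascular smooth muscle cells (VSMCs) are the liver cells in which these systems were compared. CCl4, a solvent activated by hepatocytes, injures the tissue oxidatively, and bile duct ligation (BDL) injures it by retained bile.

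Cells came from male mice carrying the Pdgfrb-BAC-eGFP reporter in a C57BL/6 background, in which green fluorescence marks cells expressing Pdgfrb, and GFP+ CD45- CD102- cells were sorted. The paper used separate gating strategies and viability stains for the digestions named below. Droplet libraries (10X) pooled 3 mice each: uninjured, 72 h after a single CCl4 injection and 6 weeks of CCl4 for the digestion that favours HSCs, and uninjured and 6 weeks of CCl4 for the digestion that favours portal FBs and VSMCs. Smart-seq2 plates 1 to 5 held wells of the digestion for portal cells from uninjured mice, from mice with BDL for 14 days and from mice given CCl4 for 6 weeks, and plate 6 held uninjured wells of both digestions. All groups carried the reporter, and a cell type that lost Pdgfrb expression would not have been seen. Time after injury and dosing schedule both differed between the CCl4 groups. By the paper's methods, 6-week livers were taken sooner after the last of repeated injections than the 72 h livers after their single one. The 72 h mice had been fasted overnight before the injection.

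The 10X libraries held 25962957 to 86661230 UMIs (molecules counted by their barcode), with a median of 4299 to 11343.5 per cell, and 33 to 74 cell barcodes were shared by any 2 libraries where 41.8 to 67.9 would be shared by random draws from the barcode list. Clusters made without the 10 genes took their names from marker genes. HSC-like cells numbered 6850 in the uninjured library, 7293 at 72 h and 5431 at 6 weeks. FB-like cells numbered 4026 and 2622, and VSMC-like cells 1708 and 3023, uninjured and at 6 weeks. All 6 HSC markers were present in HSC-like cells, with a sum of 25995 UMIs per 1000000 (CPM) uninjured, 4874 at 72 h and 13436 at 6 weeks. FB markers summed to 6979 and 7147 CPM in FB-like cells and to 13.8, 125 and 191 in HSC-like cells of the 3 libraries. Since 1 library stood for each group, 10X differences have no replicate check, and each 95% interval below (Poisson for a level, binomial for a ratio, both exact) covers counting error only. A gene was counted as higher or lower when it differed 2-fold or more and reached 20 CPM in the higher group.

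The leading gene differed by cell type. Sod3 was the most abundant of the 10 in HSC-like cells of all 3 libraries, at 3295 CPM (3279–3312) in uninjured mice, followed by Mt1 at 1203 (1193–1213). Gpx3 led in FB-like cells of both libraries, at 2714 (2692–2737) uninjured, again followed by Mt1 at 955 (942–969). In VSMC-like cells Gpx1 led, at 814 (791–837) uninjured, with Gpx4 next at 716 (695–738) and Sod3 at 644 (623–665). Nqo1 was the lowest gene in the HSC-like and the FB-like groups, and Hmox1 the lowest in VSMC-like cells. Some neighbours in these orders were not separated beyond their counting intervals. In uninjured FB-like cells the intervals touched for Txnrd1 and Hmox1, and at 6 weeks Sod3 (602–625) and Gpx4 (592–616) overlapped. In VSMC-like cells at 6 weeks, by contrast, Sod3 (722–751) and Gpx4 (680–708) were separate. The sum of the 10 genes was 6073, 4983 and 8935 CPM in HSC-like cells of uninjured, 72 h and 6-week mice. It was 5751 and 7849 in FB-like and 2983 and 3455 in VSMC-like cells, uninjured and at 6 weeks.

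**Figure D1:**
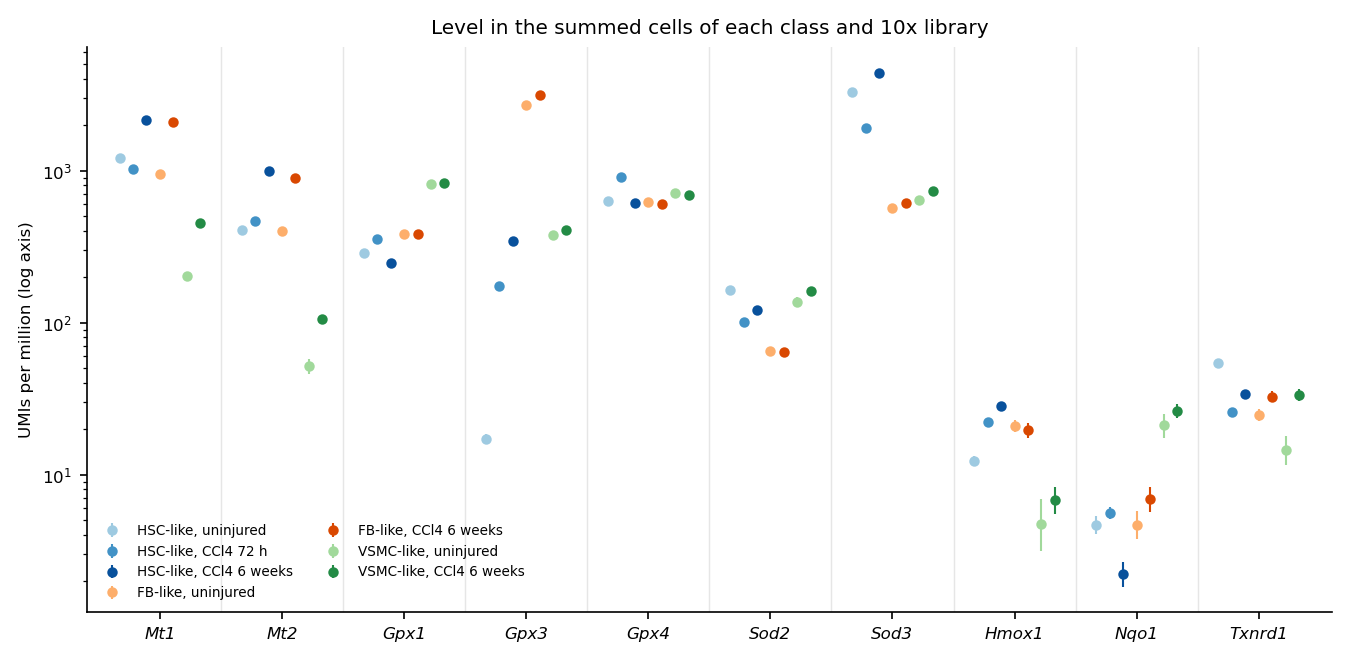
CPM (log axis) of the 10 genes in the 7 groups of cells of the 10X libraries, 1 pooled library per group; points are levels and bars are exact 95% Poisson intervals. Gpx3 in HSC-like cells lies at 17.3 uninjured against 175 at 72 h and 343 at 6 weeks, while in FB-like cells it is 2714 and 3145.

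Mt1 and Mt2, which are widely expressed metallothionein genes, lie 5513 bases apart on the same strand of chromosome 8, Mt2 at chr8:94172664-94173568 and Mt1 at chr8:94179082-94180327 (GRCm38, GENCODE vM21). Their promoters are shown because these neighbours were both higher at 6 weeks in each cell type described below. RefSeq windows (GRCm38.p6, plus strand) run from 250 bases before the RefSeq start of the transcript to 30 bases after it. RefSeq and GENCODE place the starts differently, and the Mt2 window ends at 94172647, before the GENCODE start at 94172664. Capitals mark the core of the metal response element bound by MTF1 (TGCACNC or TGCGCNC) and the core of the antioxidant response element bound by NRF2 (TGACNNNGC), each searched on both strands.
Mt2, chr8:94172368-94172647: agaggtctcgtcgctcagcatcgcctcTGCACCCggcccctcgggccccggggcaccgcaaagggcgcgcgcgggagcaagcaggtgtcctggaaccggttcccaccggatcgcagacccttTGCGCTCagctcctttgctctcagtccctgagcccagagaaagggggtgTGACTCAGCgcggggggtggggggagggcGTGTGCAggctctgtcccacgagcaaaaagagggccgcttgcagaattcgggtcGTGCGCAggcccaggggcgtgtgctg
Mt1, chr8:94178839-94179118: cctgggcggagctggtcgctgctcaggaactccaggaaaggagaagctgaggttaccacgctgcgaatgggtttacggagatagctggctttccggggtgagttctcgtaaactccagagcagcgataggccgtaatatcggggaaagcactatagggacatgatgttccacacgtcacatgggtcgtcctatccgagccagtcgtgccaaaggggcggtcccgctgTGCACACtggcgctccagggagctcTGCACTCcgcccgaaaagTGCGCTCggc
The Mt2 window held 4 metal response cores and 1 antioxidant core, and the Mt1 window 3 metal response cores, none overlapping. Mt1 cores at 3 and 21 bases and an Mt2 core at 5 bases lay after the RefSeq start. Sequence outside the windows was not searched. Of 32851 promoter windows of 300 bases, 25.7% held at least 1 metal response core, 1.97% held 3 or more and 12.4% held an antioxidant core. No window was at hand for Sod3 and Hmox1, so their promoters were not searched. In the windows of Gpx1, Gpx3, Gpx4, Nqo1, Sod2 and Txnrd1 the only match was 1 antioxidant core in 1 of the 3 windows of Txnrd1. A match in letters is a description and not a bound site. The 2 transcripts are close in sequence, and how the authors' counting assigned reads shared by both is not given in the sources used here, so their separate levels are uncertain.

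Metallothionein transcripts were higher after 6 weeks of CCl4 in all 3 cell types. In HSC-like cells Mt1 stood at 1203 CPM uninjured, 1023 (1017–1030) at 72 h and 2160 (2148–2173) at 6 weeks. Mt2 stood at 405 (399–411), 464 (460–469) and 1000.4 (992–1009). The 6-week ratio was 1.80 (1.78–1.81) for Mt1 and 2.47 (2.43–2.51) for Mt2, whereas at 72 h, against the same uninjured library, it was 0.851 and 1.15. At 72 h Mt1 was thus slightly lower than uninjured and Mt2 slightly higher, and both were highest at 6 weeks. The 72 h log2 ratio of Mt1, −0.23, was near the median over all genes, −0.21, and TMM scaling adds 0.18 to it. In FB-like cells Mt1 stood at 955 and 2092 CPM uninjured and at 6 weeks, and Mt2 at 401 and 890, ratios of 2.19 (2.15–2.23) and 2.22 (2.16–2.28). In VSMC-like cells Mt1 stood at 203 and 451 and Mt2 at 51.6 and 105, ratios of 2.22 (2.09–2.37) and 2.04 (1.80–2.31). Both genes were lowest in VSMC-like cells in each condition, yet the ratio over all cells of the class was about the same as in FB-like cells. It differed between VSMC-like clusters. In the larger clusters Mt1 went from 114 to 338 and from 170 to 522, and Mt2 from 14.2 to 74.7 and from 25.1 to 86.6. In the smaller clusters Mt1 went from 506 to 975 and from 107 to 338, and Mt2 from 211 to 342 and from 41.4 to 88.8. Without the cells called as doublets the VSMC-like log2 ratio of Mt2 was 1.74 in place of 1.03.

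The share of cells with a transcript moved with the level. With each cell reduced to 2000 UMIs, Mt2 was seen in 39.3%, 42.4% and 65.2% of HSC-like cells of uninjured, 72 h and 6-week mice. In FB-like cells the share was 36.2% and 54.2%, and in VSMC-like cells 5.95% and 14.9%. Within such HSC-like cells Mt1 and Mt2 counts went together, with Spearman's rho of 0.37, 0.42 and 0.52 across 6735, 7293 and 5431 cells of 1 library each, a description across cells and not replicates. Cells differed widely within a library. The HSC-like clusters of uninjured mice with at least 50 cells ran from 641 to 1845 CPM for Mt1 and from 201 to 881 for Mt2. At 6 weeks the cluster of 2137 cells held 3359 of Mt1 and 1686 of Mt2, against 1202 and 496 in the cluster of 2088 cells.

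Gpx3, the secreted plasma glutathione peroxidase (11:54902453-54910377), showed the widest range. It stood at 17.3 CPM (16.1–18.5) in uninjured HSC-like cells, 175 (173–178) at 72 h and 343 (338–348) at 6 weeks, ratios of 10.1 (9.45–10.9) and 19.8 (18.5–21.3). Even at 6 weeks the level in HSC-like cells stayed far under that in FB-like cells, which was 2714 uninjured and 3145 at 6 weeks, a ratio of 1.16 (1.14–1.17). In VSMC-like cells it was 376 and 407, a ratio of 1.08, and FB markers there summed to 822 and 667 CPM. Their part in the Gpx3 level of VSMC-like cells was not tested. The share of HSC-like cells with a Gpx3 transcript at 2000 UMIs was 2.93%, 25.4% and 34.6% (7.97%, 66.6% and 67.9% with all UMIs). The same share was 80.6% and 87.8% in FB-like and 29.2% and 40.7% in VSMC-like cells. Uninjured HSC-like cells had the lowest share. No cell type known to lack Gpx3 was at hand to give its background. The hepatocyte gene Alb, not an HSC gene, stood at 23.3, 4.34 and 20.2 CPM in HSC-like cells of uninjured, 72 h and 6-week mice, and in 4.20%, 0.960% and 3.54% of them at 2000 UMIs. Gpx3 was thus below Alb in uninjured HSC-like cells, where its presence is not shown, and above it in both CCl4 libraries. Alb is another gene and does not measure the background of Gpx3 itself. Uninjured HSC-like clusters ran from 11.7 to 67.3 CPM of Gpx3.

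The sum of FB markers was also higher in the injured HSC-like cells, as given above. Most of it there was Dpt, at 6.70, 75.6 and 163 CPM in the 3 libraries. Dpt was the only 1 of the 6 FB markers to reach 20 CPM in HSC-like cells. HSC-like cells with transcripts of 3 or more FB markers numbered 1, 351 (4.81%) and 104 (1.91%) in the 3 libraries. Their Gpx3 level was 333 at 72 h and 1090 at 6 weeks. Without them the log2 ratio of Gpx3 was 3.25 in place of 3.34 at 72 h and 4.24 in place of 4.31 at 6 weeks, an alternative chosen after seeing the data. In VSMC-like cells Gpx3 was uneven. Small clusters of 128 and 99 uninjured cells held 1331 and 1093 CPM, and in the same clusters at 6 weeks, with 161 and 92 cells, it was 1546 and 1478. The 2 largest VSMC-like clusters held 148 and 144 uninjured and 239 and 240 at 6 weeks.

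The intracellular glutathione peroxidases differed less. Gpx1, the cytosolic enzyme (9:108338903-108340343), stood at 286, 357 and 246 CPM in HSC-like cells of uninjured, 72 h and 6-week mice. It was 383 and 382 in FB-like and 814 and 833 in VSMC-like cells. Gpx4, which reduces lipid peroxides in membranes and guards against ferroptosis (10:80047166-80056439), was 632, 910 and 612 in HSC-like cells. Its 72 h ratio of 1.44 (1.42–1.46) stayed under 2-fold, and the 6-week ratio of 0.967 changed side when libraries were scaled by TMM (log2 −0.05 against 0.15). In FB-like and VSMC-like cells Gpx4 lay between 604 and 716. No ratio of Gpx1 or Gpx4 to the uninjured level reached 2-fold in any of the 4 comparisons.

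Sod3, the secreted copper and zinc superoxide dismutase that binds to the matrix (5:52363791-52371418), went in opposite directions at the CCl4 time points in HSC-like cells. It stood at 3295 CPM uninjured, 1898 (1889–1907) at 72 h and 4388 (4370–4406) at 6 weeks, ratios of 0.576 (0.572–0.580) and 1.33 (1.32–1.34). In FB-like cells it was 563 and 614, and in VSMC-like cells 644 and 736. Nearly every HSC-like cell held a Sod3 transcript at 2000 UMIs, 99.2% uninjured and 99.4% at 6 weeks, but 88.3% did at 72 h. Sod2, the manganese enzyme of mitochondria (17:13006846-13040063), was 163, 101 and 122 in HSC-like cells, and FB-like cells held 64.6 and 63.8 and VSMC-like cells 138 and 162.

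The NRF2 and heme genes were scarce. Hmox1, which breaks down heme (8:75093621-75100589), stood at 12.3, 22.3 and 28.4 CPM in HSC-like cells, ratios of 1.81 (1.65–1.99) at 72 h and 2.31 (2.09–2.55) at 6 weeks. In uninjured HSC-like cells Hmox1, like Gpx3, was below Alb, so its presence there is not shown either. Hmox1 was 20.9 and 19.6 in FB-like and 4.76 and 6.77 in VSMC-like cells. Txnrd1, the cytosolic thioredoxin reductase and itself a selenoprotein (10:82833951-82897712), was lower in HSC-like cells, at 53.9 uninjured, 25.9 at 72 h and 34.1 at 6 weeks. The ratios were 0.480 (0.454–0.509) and 0.632 (0.595–0.672). In VSMC-like cells Txnrd1 was the other way, at 14.4 and 33.6, a ratio of 2.33 (1.85–2.97), and in FB-like cells 24.6 and 32.6, a ratio of 1.32. Nqo1, a quinone reductase (8:107388225-107403206), stayed at 2.22 to 6.87 in HSC-like and FB-like cells, too low to be counted, and was 21.1 and 26.3 in VSMC-like cells. Of the NRF2 targets among the 10 genes, Hmox1 was thus higher and Txnrd1 lower in HSC-like cells, and Nqo1 was not counted. Since the Hmox1 ratios rest on an uninjured level below Alb, no shared or opposed direction of NRF2 targets is drawn from them.

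Counted over the 10 genes, 9 reached 20 CPM in each comparison, and those above 2-fold were few. In HSC-like cells at 6 weeks Mt2, Gpx3 and Hmox1 were higher and no gene lower, where 2.73% of 6011 genes were higher and 1.58% lower; this contrast was used to list the genes. At 72 h Gpx3 was higher and Txnrd1 lower, against 6.55% and 9.73% of 6229 genes. In FB-like cells Mt1 and Mt2 were higher, against 1.37% higher and 0.383% lower of 6003 genes, and in VSMC-like cells Mt1, Mt2 and Txnrd1, against 2.09% and 0.389% of 5919. The median log2 ratio of the 9 genes was 0.41, 0.20, 0.12 and 0.24 in these comparisons, beside −0.22, −0.21, −0.02 and 0.03 over all genes. TMM scaling added 0.20 and 0.18 to every log2 ratio of HSC-like cells, which put Mt1 at 6 weeks at 1.05 in place of 0.85 and Hmox1 at 72 h at 1.04 in place of 0.86, both past 2-fold. It also took Txnrd1 at 72 h to −0.88 in place of −1.06 and Mt2 in VSMC-like cells to 0.98 in place of 1.03, neither of them past 2-fold any longer. Over all genes it turned 164 higher and 95 lower into 256 and 33 at 6 weeks, and 408 and 606 into 540 and 400 at 72 h.

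**Figure D2:**
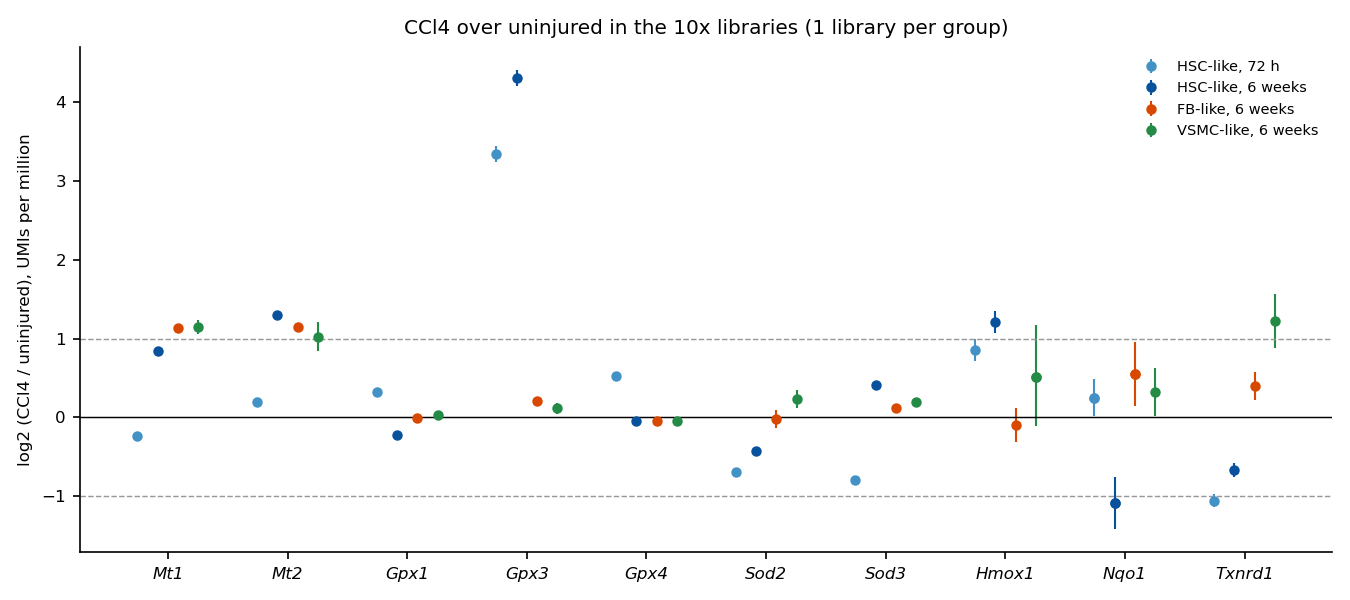
Log2 ratio of CCl4 over uninjured CPM for the 10 genes in the 4 comparisons of the 10X libraries; bars are exact 95% intervals for counting error, and dashed lines mark 2-fold. Gpx3 is set apart in HSC-like cells only (ratios of 10.1 and 19.8), and Mt1 and Mt2 lie just past 2-fold in FB-like and VSMC-like cells.

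Genes around these systems were mostly below 2-fold at 6 weeks. In HSC-like cells none of the 12 other NRF2 targets, 14 other antioxidant enzymes, 9 zinc and copper genes, 9 heme and iron genes, 8 glucocorticoid-responsive genes, 9 selenoprotein genes or 6 regulators that reached the level was counted in either direction. The other NRF2 targets had a median log2 ratio of −0.48, and 0 of 12 lay above 0, where the median over all genes was itself −0.22. In FB-like cells 4 of 8 glucocorticoid-responsive genes were higher (median log2 0.87, 8 of 8 above 0, beside 1.37% of all genes higher and a median of −0.02), led by Ddit4 at 75.5 against 23.7 CPM, Zbtb16 at 36.6 against 15.4 and Per1 at 26.6 against 12.3. In VSMC-like cells 2 of 7 were higher, beside 2.09% of all genes, Per1 at 38.0 against 15 and Zbtb16 at 43.6 against 18.3. Mafk, a partner of NRF2 and of its rival BACH1, was the regulator counted, at 71.2 against 34.8 in VSMC-like cells. FB-like cells at 6 weeks also held more transcripts of 5 of 6 VSMC markers, such as Myh11 at 101 against 28.1, and fewer of the heat-shock genes Hspa1a and Hspa1b. The part of these genes in the metallothionein levels was not tested.

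At 72 h more of the surrounding genes were counted in HSC-like cells, as were more of all genes (6.55% higher and 9.73% lower, beside 2.73% and 1.58% at 6 weeks). Of 12 other NRF2 targets 4 were lower, among them Osgin1 at 10.1 against 42.0 CPM, the glutathione transferase Gstm1 at 222 against 669 and the epoxide hydrolase Ephx1 at 80.1 against 192. Of 15 other antioxidant enzymes 3 were higher. These were Gpx7 at 207 against 49.6, the glutaredoxin Glrx at 23.3 against 6.75 and Prdx4 at 283 against 120, and Gpx7 and Prdx4 act in the endoplasmic reticulum. Of 7 glucocorticoid-responsive genes 4 were lower, led by Sgk1 at 111 against 443 and Dusp1 at 497 against 1525, as were 7 of 11 stress and immediate early genes, led by Hspa1b at 1.10 against 32.3. Stress genes can answer to digestion and sorting, and their part in the values of the 10 genes was not tested. All 3 fibrillar collagens were higher at 72 h, Col1a1 at 2152 against 201, and Col1a1 alone at 6 weeks, at 606.

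Within the HSC-like cells of a library the genes were also compared across 3 equal bins of cells. Cells were ranked by a zonation score (52 portal minus 29 central genes, a list the study drew from the uninjured library) or by the share of their UMIs in fibrillar collagens, and none of the 10 genes is in either list. From the central to the portal bin Sod3 stood at 2454, 3145 and 4246 CPM in uninjured mice, 1185, 1232 and 3426 at 72 h and 2788, 3603 and 6859 at 6 weeks. The portal bin was the highest in each library, 1.73, 2.89 and 2.46 times the central bin. Gpx3 went the other way at 6 weeks, at 423, 369 and 232, and had no such slope at 72 h, at 166, 174 and 186. In uninjured mice, where it was scarce, it stood at 16.2, 11.3 and 24.4, with the portal bin the highest. Hmox1 at 6 weeks was 36.5, 29.2 and 19.3 from central to portal.

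Ranked by collagen share, Sod3 was highest in the cells with the least collagen RNA after injury. It stood at 3720, 1386 and 963 CPM from the lowest to the highest bin at 72 h and at 5454, 4484 and 3288 at 6 weeks. Gpx3 was highest in the bin with the most collagen RNA, at 286, 297 and 442 at 6 weeks, 151, 155 and 213 at 72 h and 13.7, 16.7 and 21.8 uninjured. The 6-week ratio of 1.55 for Gpx3 did not reach 1.5 when cells were reduced to 2000 UMIs. Mt1 and Mt2 stayed within 1.5-fold between the outer bins in all 3 libraries by both rankings. Bins of 1 library are a description and carry no test.

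**Figure D3:**
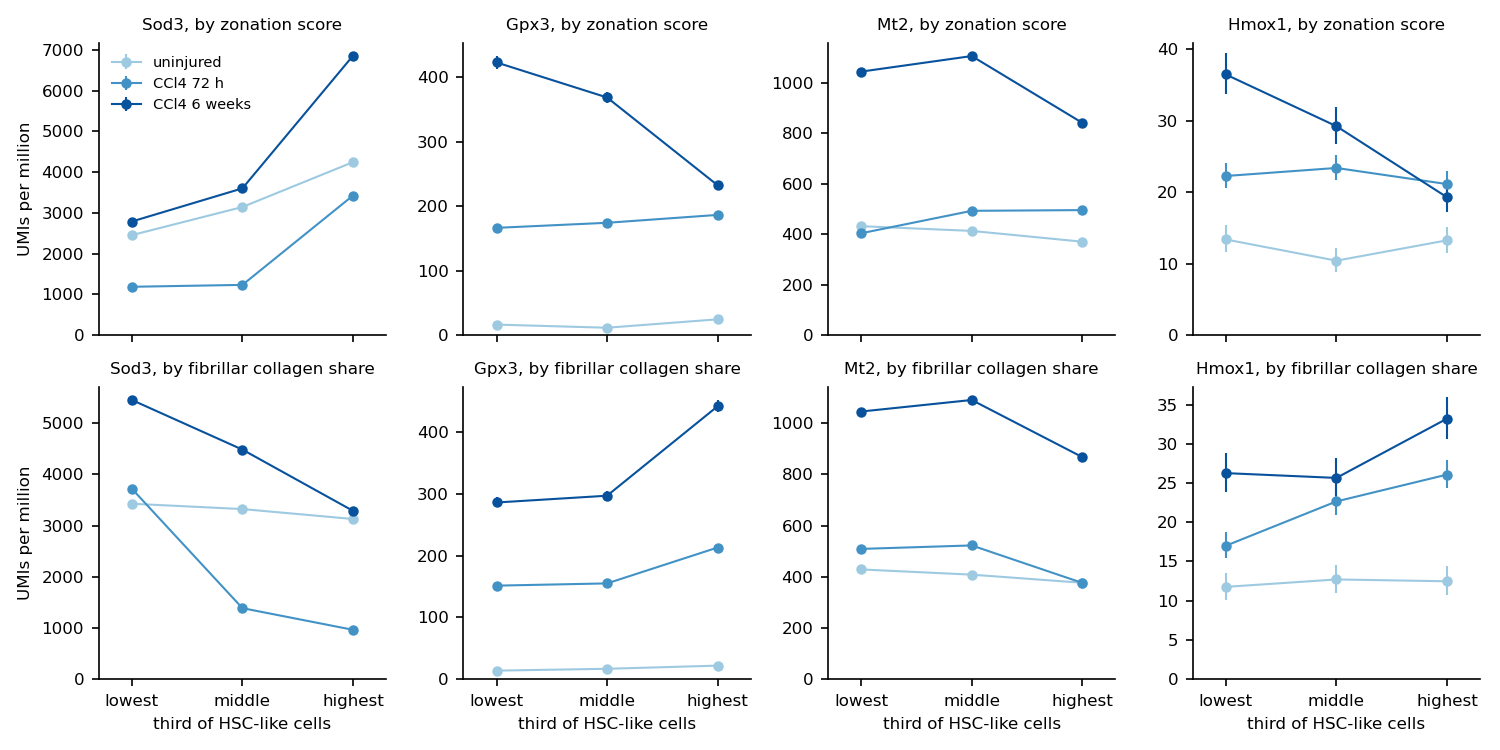
CPM of Sod3, Gpx3, Mt2 and Hmox1 in 3 equal bins of HSC-like cells of each library, ranked by zonation score or by fibrillar collagen share; bars are exact 95% Poisson intervals. Sod3 is highest in the portal bin of each library (4246, 3426 and 6859) and, after injury, in the bin with the least collagen RNA.

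The clusters gave the same genes another division. At 6 weeks Gpx3 stood at 793 CPM in the cluster of 1113 HSC-like cells, where Hmox1 was 47.9 and Sod3 2331, against 223 and 242 in the clusters of 2088 and 2137 cells, where Sod3 was 6323 and 3542. Cells rich in Gpx3 and cells rich in Mt2 were thus different clusters, 463 of Mt2 in the former and 1686 in the cluster of 2137 cells. In single cells reduced to 2000 UMIs, Gpx3 and Mt2 counts had a Spearman's rho of −0.02, −0.01 and −0.09 in uninjured, 72 h and 6-week HSC-like cells. At 72 h Gpx3 differed less between clusters, from 117 to 210, while Sod3 ran from 881 to 5226.

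**Figure D4:**
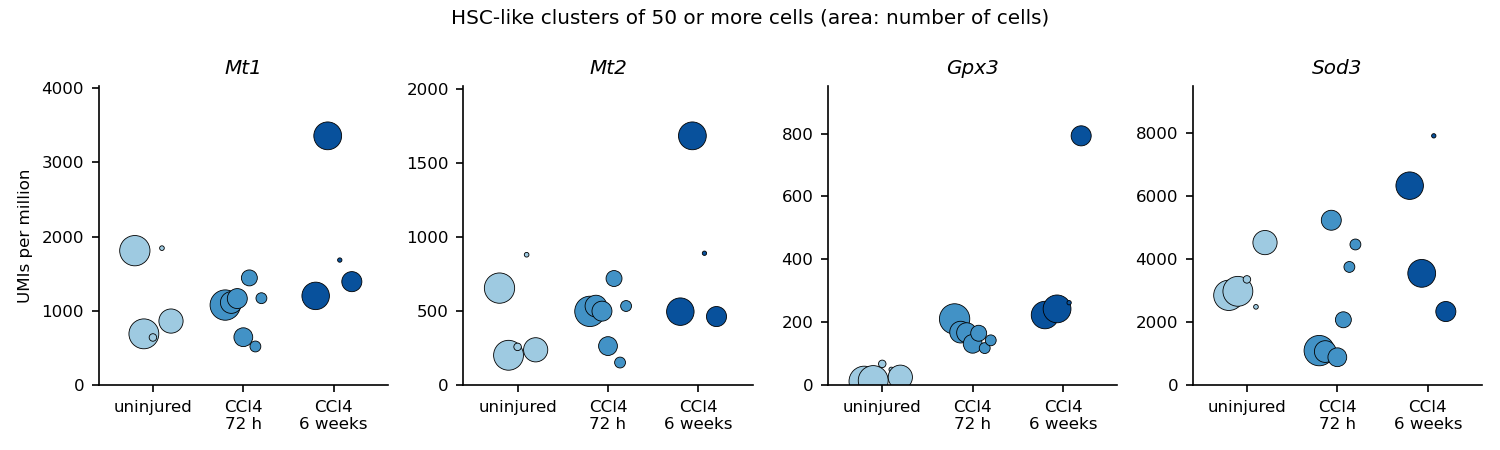
CPM of Mt1, Mt2, Gpx3 and Sod3 in each cluster of at least 50 HSC-like cells, by library; the area of a point stands for its number of cells. At 6 weeks the cluster with most Gpx3 (793) is not the cluster with most Mt2 (1686) or Sod3 (7903).

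Smart-seq2 gave replicated values, in CPM of reads. Of 2292 wells 2065 were kept, with a median of 445569 reads, and reads were summed over the wells of a cell type from each mouse entry of a plate's layout, here called a portion. There were 5 uninjured, 5 BDL and 4 CCl4 portions, with 9 to 109 FB-like and 23 to 108 VSMC-like wells. BDL portions were on plates 1, 2 and 4 and CCl4 portions on plates 3 and 5, each plate with an uninjured portion. Values of BDL portions beside CCl4 portions thus also compare plates, while the fitted difference runs through the uninjured portions. Values are listed in plate order. The sample labels count the entries of each plate by condition, and these match its portions. Nothing says that portions of different plates were separate mice. Plates 1 and 2 have like layouts, and the methods count fewer uninjured livers for Smart-seq2 than there are uninjured portions, so some portions may share a mouse and p-values over portions would then be too small. A further 77 uninjured, 22 BDL and 171 CCl4 wells lay in clusters that took no name and were left out. In 1 CCl4 portion these were 85 of 162 wells, which left 12 FB-like ones. Pooled without TMM factors, the unnamed CCl4 wells held 3345 CPM of Gpx3 and 765 of Mt1. The 84 FB-like CCl4 wells held 5862 and 1060. Unnamed uninjured wells held 1938 and 527, and FB-like uninjured wells 5030 and 1024. The part of leaving out unnamed wells in the FB-like values was not tested. Values of portions are CPM of reads after TMM scaling, and they are not compared between genes.

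None of the 10 genes passed edgeR's quasi-likelihood test (adjusted p under 0.05) in FB-like wells, and neither did any of 14186 genes (0%) for BDL or CCl4 over uninjured or BDL over CCl4. At an unadjusted p under 0.05 there were 855, 419 and 572 genes, and DESeq2 called 493, 224 and 218, none of them among the 10. Gpx3 was 4782, 7202, 4410, 6258 and 2381 in the uninjured portions. It was 3549, 3240, 3724, 937 and 5032 after BDL and 4897, 4822, 7888 and 7697 after CCl4. The BDL portions were the low ones, but the groups overlapped when compared across plates. Within its own plate, each BDL portion lay below the uninjured portion and each CCl4 portion above it. The share of all genes with such an order within plates was not counted, so nothing is drawn from it. The log2 difference of BDL from CCl4 was −1.74 ± 0.68 (SE; edgeR adjusted p = 1), and that of CCl4 from uninjured 0.85 ± 0.53 (SE; edgeR adjusted p = 1).

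Sod3 in FB-like wells was 1861, 1454, 1756, 1559 and 1082 uninjured, 1157, 931, 1169, 461 and 1370 after BDL and 1880, 1498, 983 and 1464 after CCl4. The log2 difference of BDL from uninjured was −0.66 ± 0.30 (SE; edgeR adjusted p = 0.83). For Mt2 the values were 133, 660, 212, 613 and 99.8 uninjured, 225, 511, 242, 467 and 881 after BDL and 149, 142, 281 and 654 after CCl4, so that each group spanned several-fold. The fitted log2 difference of CCl4 from uninjured was 0.61 ± 0.73 for Mt2 and 0.50 ± 0.59 for Mt1 (SE). Neither passed the test, and the spread between portions was as large as the 10X ratios. Compared across plates, the portions of all 10 genes overlapped in each contrast. Within its own plate, each BDL portion held less Sod3 than the uninjured portion, as for Gpx3. The share of all genes with that order was not counted, so nothing is drawn from it. Compared across plates, 1.31% of all genes were higher without overlap and 0.987% lower for BDL over uninjured. These shares were 0.916% and 0.79% for CCl4 over uninjured, and 1.61% and 1.11% for BDL over CCl4. FB-like BDL portions held 2188 to 4698 of summed FB markers against 3474 to 5363 uninjured, and 45.1 to 1704 of summed hepatocyte markers against 187 to 386. Stress and immediate early genes summed to 7489 to 22596 (median 8770) after BDL against 14255 to 23102 (median 20763) uninjured. The part of these genes in the values was not tested.

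In VSMC-like wells 1 of 14301 genes (0.00699%), the matricellular gene Sparcl1 (log2 difference 1.19 ± 0.12, adjusted p = 0.0057), was called for BDL over uninjured and none for CCl4 over uninjured or BDL over CCl4 by edgeR, with 995, 472 and 557 at an unadjusted p under 0.05. DESeq2 called 437, 247 and 230, none among the 10 genes. After BDL the antioxidant enzymes Sod3, Gpx1 and Txnrd1 were separate from uninjured with TMM scaling. Sod3 was 1727, 1659, 1692, 1995 and 1973 uninjured, 2316, 3106, 2166, 2508 and 2127 after BDL, and 1688, 1888, 1677 and 2054 after CCl4. Every BDL portion was thus above every portion of the other groups on this scale, with BDL and CCl4 portions on different plates. On CPM without TMM factors the lowest BDL portion stood at 2037, the highest uninjured one at 2030 and the highest CCl4 one at 2067, so that BDL and CCl4 overlapped. The log2 difference of BDL from uninjured was 0.44 ± 0.17 (SE; edgeR adjusted p = 0.66).

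Gpx1 was 975, 946, 972, 1018 and 1091 uninjured and 1123, 1259, 1882, 1265 and 1314 after BDL, a log2 difference of 0.47 ± 0.19 (SE; edgeR adjusted p = 0.70). Txnrd1 was 35.5, 51.4, 31.2, 68.5 and 23.6 uninjured and 69.3, 90.9, 80.5, 72.6 and 91.2 after BDL, a log2 difference of 0.74 ± 0.30 (SE; edgeR adjusted p = 0.70). The uninjured and BDL portions of both genes did not overlap, for Txnrd1 by a narrow gap. Without TMM factors both did, the lowest BDL and highest uninjured portion being 1118 and 1119 for Gpx1 and 69.0 and 69.7 for Txnrd1. For BDL over uninjured, 3 of the 10 genes were thus higher without overlap and none lower, where 1.67% of all genes were higher and 1.28% lower; for BDL over CCl4, Sod3 alone was, where 1.57% were higher and 1.17% lower. For CCl4 over uninjured none of the 10 was, where 0.573% and 0.72% were. Without TMM factors, an alternative chosen after seeing the data, the counts of 3 and 1 after BDL became 1 (Sod3) and 0, where 1.26% and 1.28% of all genes were higher. After CCl4 Txnrd1 was 40.5, 84, 47.7 and 48.8, with a log2 difference from uninjured of 1.01 ± 0.36 (SE; edgeR adjusted p = 1).

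Nqo1 and Mt2 overlapped between groups when portions were compared across plates. Within its own plate, each BDL portion lay above the uninjured portion for both genes. After CCl4 each portion likewise lay above the uninjured one for Txnrd1 and Gpx3, and below it for Nqo1. How many of all genes had such an order was not counted, so nothing is drawn from it. Nqo1 was 46.9, 72.6, 142, 71.2 and 55.2 uninjured and 48.4, 141, 140, 191 and 129 after BDL, a log2 difference of 1.03 ± 0.32 (SE; edgeR adjusted p = 0.54). After CCl4 it was 79.0, 94.0, 41.7 and 50.5, and BDL differed from CCl4 by 1.53 ± 0.48 (SE; edgeR adjusted p = 1). Mt2 was 3.87, 24.4, 13.4, 7.06 and 32.0 uninjured, 24.1, 36.7, 46.0, 26.2 and 51.8 after BDL and 29.0, 5.56, 21.5 and 96.7 after CCl4. The BDL difference was 1.96 ± 0.74 (SE; edgeR adjusted p = 0.65) and that of CCl4 0.62 ± 0.80. Mt1 differed by 0.04 ± 0.46 after CCl4. The BDL difference of Gpx3 was 0.85 ± 1.15 and that of Hmox1 −1.01 ± 1.14, each smaller than its standard error. Mt2, Gpx1, Sod3, Nqo1 and Txnrd1 were at an unadjusted p under 0.05 for BDL over uninjured, Txnrd1 for CCl4 over uninjured and Nqo1 for BDL over CCl4. In BDL portions the summed HSC markers were 755 to 1365 against 557 to 959 uninjured and the stress genes 10548 to 16184 against 14882 to 24967; their part in these values was not tested.

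**Figure D5:**
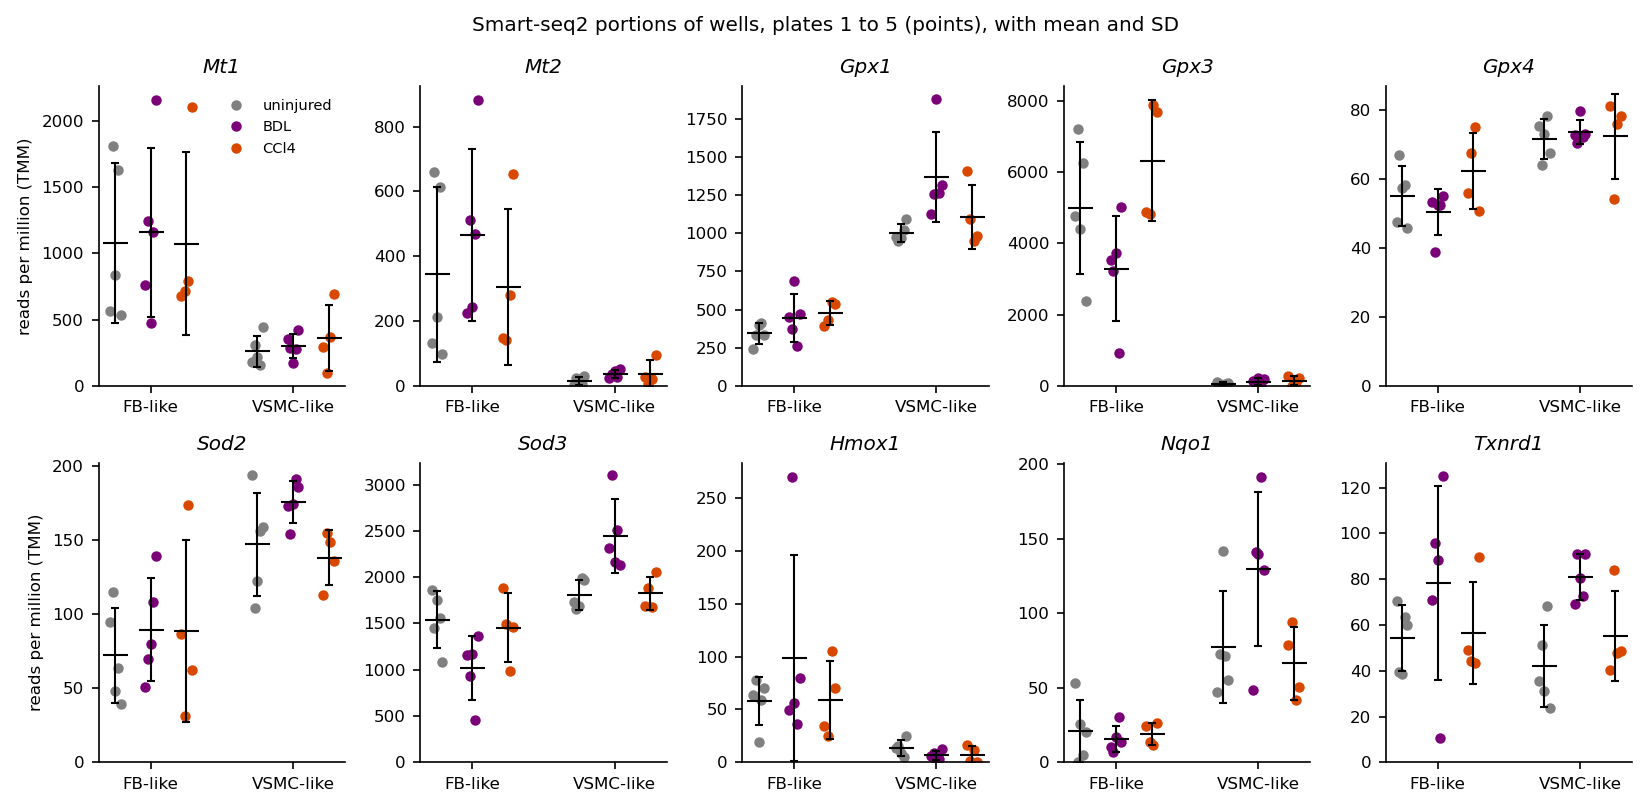
TMM-scaled CPM of the 10 genes in FB-like and VSMC-like wells, 1 panel per gene; each point is a portion (5 uninjured, 5 BDL, 4 CCl4), and bars are the mean and SD. For Sod3, Gpx1 and Txnrd1 in VSMC-like wells the BDL points lie above all uninjured points on this scale (without TMM factors Gpx1 and Txnrd1 overlap), and none of the 10 genes passed the adjusted test in either cell type.

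The difference between cell types was seen again portion by portion, as a description. In 14 of 14 portions Gpx3, Mt1, Mt2 and Hmox1 were higher in the FB-like than in the VSMC-like wells of the same portion, with median ratios of 58.1, 3.54, 15 and 8.85. For Gpx3 this was wider than the uninjured 10X levels of 2714 and 376, and FB markers in VSMC-like wells summed to at most 139. Gpx1 was higher in the VSMC-like wells of 14 of 14 portions (median ratio 2.72), Gpx4 and Nqo1 of 13 (1.36 and 5.61), Sod2 of 12 (2.15) and Sod3 of 11 (1.52). Txnrd1 was higher in the FB-like wells of 9 of 14 (1.10). The 312 HSC-like wells of plate 6, from uninjured mice, held 19.3 CPM of Gpx3, 4456 of Sod3, 180 of Mt1 and 43.5 of Mt2. For Mt1 the order of cell types was not that of the 10X libraries. Pooled uninjured wells held 1024 CPM in FB-like, 255 in VSMC-like and 180 in HSC-like wells, whereas the uninjured 10X levels were 955, 203 and 1203.

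Genes with the most similar profile were sought for Gpx3, Mt2 and Sod3 among 7530 genes over the 7 groups of 10X cells, by Pearson correlation of log2 levels, with groups sharing libraries. For Gpx3 they were Dpt (r = 0.997), Svep1 (0.995), Gas7 (0.974), Ptgis (0.974) and Igf1 (0.973), of which Dpt was also an FB marker here. For Mt2 they were Mt1 (0.990), Grina (0.989), Mnda (0.984), Adamts2 (0.968) and Shisa3 (0.967). For Sod3 they included Trim34a (0.996), Map4k3 (0.995), Pydc3 (0.994) and Tmem47 (0.993). The 7 groups fall mostly along cell type, and the HSC-like groups also differ from the others in digestion. These values therefore describe likeness of levels only.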

How the data were processed

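For the 10X libraries the authors made UMI counts per gene and cell with Cell Ranger 2.1.0 on mm10, deposited as raw counts, and for Smart-seq2 they deposited read counts per gene and well after STAR alignment to mm10 with eGFP and spike-in sequences, counted by rpkmforgenes. Neither was normalized. Kept were genes seen in 3 or more cells, cells with at least 300 genes and at most 30% mitochondrial UMIs, and wells within 3 median absolute deviations. Cells were clustered (2000 variable genes without the listed genes, 10 principal components, 30 neighbours, Leiden at resolution 0.8, seed 20190), the 72 h library apart from the 6-week libraries. A cluster took the name with the highest marker level, a scoring set after clusters had been looked at, unless markers of another type outnumbered its own among its 10 leading genes. By this, Smart-seq2 clusters of 161 and 109 wells, with hepatocyte and leucocyte markers highest, stayed unnamed and were left out, as were 27 mesothelial wells. That score does not make the unnamed wells hepatocytes or leucocytes. Notum and Wif1 were among the leading genes of the 109 wells, as of a 10X cluster named FB-like. Saa3 and Hp were among those of the 161 wells, as of another 10X cluster named FB-like. The cholangiocyte marker Epcam was also among those of the 161 wells. The FB-like classes of 10X and Smart-seq2 may thus differ in make-up, which was not tested. FB markers were Clec3b, Dpt, Entpd2, Fbln2, Col15a1 and Cd34; HSC markers Vipr1, Colec11, Pth1r, Ecm1, Hgf and Reln; VSMC markers Tagln, Acta2, Tpm2, Pln, Myh11 and Cnn1. Endothelial, leucocyte, hepatocyte, cholangiocyte, mesothelial and Schwann cell markers were also scored. No 10X cluster took those names when the uninjured and 6-week libraries were clustered, and uninjured cells kept the names given there. With the uninjured and 72 h libraries, a cluster of 1718 cells took the hepatocyte name, with Wif1 among its leading genes. Of these cells 99.8% came from the uninjured library for portal cells, and they were used here under their names from the other clustering. CPM are UMIs summed over the cells of a class per 1000000 of their UMIs.

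The listed genes, the gene lists and the markers were chosen with earlier results of these data known. Beside the 10 genes, at most the 3 list genes with the largest fold each way among those past 2-fold, and the 5 genes most alike to Gpx3, Mt2 and Sod3 (log2 of CPM plus 1), were to be named. Of the genes most alike to Sod3, 1 is not reported here. Smart-seq2 reads summed per portion were fitted across all genes with edgeR's quasi-likelihood test (condition and plate) and Benjamini-Hochberg adjustment. Plate numbers join the uninjured portion of a plate to its injured ones. Their deviations from the group means correlated by −0.04 to 0.15. On data simulated for FB-like BDL over uninjured (13788 genes), 10 of 97 tested genes changed 4-fold (log2 of 2) and 30 of 100 changed by a log2 of 3 were called, with 1 false call. At medians of 445569 reads per well and at most 11343.5 UMIs per cell, scarce genes such as Nqo1 were measured by few molecules. Alternatives changed cell depth, scaling, weighting, doublets, cell classes, minimum level, tool, filter, plate term and portions. Tools were Python 3.11.15, NumPy 2.4.6, leidenalg 0.10.2, igraph 0.11.9, matplotlib 3.10.9, scikit-learn 1.9.0, SciPy 1.17.1, and edgeR 4.0.16 and DESeq2 1.42.0 in R 4.3.3.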

Additional observations from a re-analysis of the deposited data

Results flagged for a closer look

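Among 60 groups of Smart-seq2 portions, 7 had a highest or lowest portion far from the others by Dixon's test at 95%, which chance does in about 1 of 20 groups. In FB-like wells after BDL, replicate 2 (12 wells) held 270 CPM of reads of Hmox1, against 36.5 to 80.1 in the others, and 38.8 of Gpx4, below the others. In FB-like wells after CCl4, replicate 4 held 2110 of Mt1, against 675 to 792, and 89.8 of Txnrd1. In VSMC-like wells after BDL, replicate 3 held 1882 of Gpx1 and 79.8 of Gpx4, both the highest. Uninjured replicate 3 held 142 of Nqo1 in VSMC-like wells, above the other uninjured portions.

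Several genes went opposite ways in 2 of the 10X comparisons, with 1 library per group, so these differences were not tested. In HSC-like cells the log2 ratio at 6 weeks exceeded that at 72 h, of the other sign, by 1.08 for Mt1 and 1.21 for Sod3. For Mt1 the 72 h ratio, −0.23, was near the median over all genes, −0.21. At 6 weeks Txnrd1 was lower in HSC-like cells and higher in FB-like and VSMC-like cells, with differences of log2 ratios of −1.06 and −1.88. Sod2 was lower in HSC-like and higher in VSMC-like cells, a difference of −0.66.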

How the results depend on the processing

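In the 10X data 259, 1014, 105 and 147 genes were past 2-fold (HSC-like at 6 weeks, HSC-like at 72 h, FB-like, VSMC-like). With no minimum level these were 1555, 3476, 982 and 1452, and with all cells of the library, FB-like and VSMC-like cells together, 220 in place of 105 or 147. The signs of the 40 ratios of the 10 genes were kept in 33 with all cells of the library, 38 with TMM scaling or without called doublets, 39 with cells reduced to 2000 UMIs or with the mean of per-cell shares, 40 with no minimum or without hepatocyte-marker cells, and, among the 20 of HSC-like cells, 20 without FB-marker cells.

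In Smart-seq2 the plate term acts as the replicate block. Without this block the calls for BDL over uninjured, CCl4 over uninjured and BDL over CCl4 were 28, 0 and 3 in FB-like wells and 32, 0 and 1 in VSMC-like wells, in place of 0, 0, 0 and 1, 0, 0, and the log2 difference of Mt1 and Mt2 in FB-like wells after CCl4 was −0.015 and −0.18 in place of 0.50 and 0.61. DESeq2 called 493, 224 and 218 genes in FB-like and 437, 247 and 230 in VSMC-like wells, and edgeR with no filter on low counts 256, 33 and 67 and 160, 19 and 16. That setting was the only alternative to call a listed gene, Gpx3 for BDL over CCl4 in FB-like wells (log2 −1.73, edgeR adjusted p = 0.0498). With all wells of a portion in 1 fit, whatever their cell type, 1 gene was called for CCl4 over uninjured and 0 for BDL over uninjured, and the log2 difference of Sod3 after BDL was 0.22, where FB-like wells alone gave −0.66. Without TMM factors, chosen after seeing the data, the listed genes not overlapping in VSMC-like wells were 1 for BDL over uninjured and 0 for BDL over CCl4, in place of 3 and 1. With plates 1 and 2 summed, chosen after seeing the data, 0 genes were called for BDL in VSMC-like wells. The cause of these changes was not tested.

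Leaving out each portion in turn gave 0 to 3 calls for BDL in FB-like wells (3 without uninjured replicate 4, 2 without BDL replicate 1), 0 to 23 in VSMC-like wells (23 without BDL replicate 5 or uninjured replicate 4, 0 without uninjured replicate 1 or 2), 0 to 2 for BDL over CCl4 in VSMC-like wells and 0 to 0 in the other contrasts. Gpx3 for CCl4 ran from 0.10 to 1.71 in FB-like wells and from 0.70 to 4.51 in VSMC-like wells. Mt1 and Mt2 for CCl4 ran from −0.30 to 1.43 and −0.59 to 2.23 in FB-like wells, below 0 without uninjured replicate 5. In VSMC-like wells they ran from −0.36 to 0.32 and −0.079 to 0.98, below 0 without CCl4 replicate 1 or 4 (Mt1 −0.36 and −0.21, Mt2 −0.079 and −0.047) and, for Mt1, without uninjured replicate 5 (−0.18).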
